A study of Mus musculus with 10 samples.

Results

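The genes described here are those of the mouse mitochondrial genome, taken as every row of the deposited count table that lies on chromosome MT and has a count in at least 1 library. There were 27 such rows among 21222 in all, namely 2 ribosomal RNA genes (mt-Rnr2 and mt-Rnr1), 3 messenger RNA genes (mt-Nd3, mt-Nd4l and mt-Nd6) and 22 transfer RNA genes. Of the 37 genes annotated on MT in GENCODE release M21, the other 10 messenger RNA genes were not analysed here. RNA was sequenced from the left ventricle, the main pumping chamber of the heart, of 10 male C57BL/6J mice aged 6 months. The groups were 3 mice of the CaNrf2-Low line (TGL), 3 mice of the CaNrf2-High line (TGH) and 4 Non-Transgenic mice (NTG), and TG stands for both lines together. CaNrf2 is a constitutively active form of Nrf2, the transcription factor that switches on antioxidant genes, while the sources used here do not name the promoter that drives it. The study compared TG with NTG.

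The mitochondrial genome is a small circle that is read from both strands into long RNAs. These are cut mostly at the transfer RNAs that lie between the other genes, and the pieces become ribosomal RNAs, transfer RNAs and messenger RNAs for core subunits of the respiratory chain. Ribosomal RNAs lie near the start of the RNA of the gene-rich strand, while mt-Nd6 is the only messenger RNA on the opposite strand. Heart muscle is among the tissues richest in mitochondria, and all proteins that copy, read and process this genome come from nuclear genes.

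The 6 transfer RNAs below are shown because their values carry the contrasts between places on the genome. The genome writes leucine and serine with a pair of transfer RNAs each, which read different codons. The sequences are from GENCODE M21 transcripts on GRCm38, 5′ to 3′ on the gene's own strand in DNA letters, with the anticodon in capitals.
mt-Tl1 (leucine, MT:2676-2750, plus strand): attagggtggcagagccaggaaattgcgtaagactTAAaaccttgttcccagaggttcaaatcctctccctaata
mt-Tl2 (leucine, MT:11671-11741, plus strand): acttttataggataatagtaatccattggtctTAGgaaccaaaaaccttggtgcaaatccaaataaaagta
mt-Ts1 (serine, MT:6870-6938, minus strand): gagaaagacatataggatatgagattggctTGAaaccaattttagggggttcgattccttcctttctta
mt-Ts2 (serine, MT:11613-11671, plus strand): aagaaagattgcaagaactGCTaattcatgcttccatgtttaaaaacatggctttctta
mt-Tq (glutamine, MT:3772-3842, minus strand): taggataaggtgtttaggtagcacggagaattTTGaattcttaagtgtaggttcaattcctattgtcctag
mt-Te (glutamate, MT:14071-14139, minus strand): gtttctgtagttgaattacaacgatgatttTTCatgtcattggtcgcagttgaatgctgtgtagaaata

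Total counts were 7076319 to 10896535 per library, with counts in 18113 to 18979 genes of each. Levels are given in CPM, counts scaled to a library size of 1000000 after TMM adjustment, in which 3 counts came to 0.26 to 0.436 CPM, the limit that a count of 0 allows for counting error alone. All 10 of the cardiomyocyte markers looked at were in the table and none was at 0. Pairs of libraries of a group correlated with r of 0.975 to 0.992 over genes, with NTG 2 and TGL 2 among the libraries least like their own group. Nfe2l2, which encodes Nrf2, was at 156, 129 and 182 CPM in TGL, 254, 182 and 244 CPM in TGH, and 164, 145, 88.3 and 122 CPM in NTG. TGH lay above NTG by 0.80 ± 0.19 on the log2 scale (SE, adjusted p = 0.0078), and the transgene may carry only part of these sequences, so this row does not check the labels. Changes are log2 fold changes from edgeR's quasi-likelihood test with standard errors (SE), p-values were adjusted by the Benjamini-Hochberg method over all genes tested, and 0.05 is the threshold for a call. The p-values set each difference between groups against the spread of these 10 mice within their groups, and take the mice as independent. Nothing in the labels says that the mice were of separate litters.

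Most of the mitochondrial rows were lower in TGH than in NTG. The low-count filter passed 26 of the 27, and mt-Tf, the phenylalanine transfer RNA, was left untested with 24 counts over all libraries. In TGH against NTG 17 of 26 were called lower, where 16.4% of all 14511 genes tested were called lower, and 1 was called higher, where the background was 16%. In either direction the background was 32.4%. The 17 lower calls were both ribosomal RNAs, all 3 messenger RNAs and 12 of 21 tested transfer RNAs. The median log2 change was -0.86 over the 26 genes and -0.02 over all genes tested. In 17 of the 27 every TGH library was below every NTG library, where 19.6% of tested genes were so placed, and in none was every TGH library above.

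The 2 ribosomal RNAs fell furthest of the long transcripts. mt-Rnr2 is the RNA of the large subunit of the mitochondrial ribosome, MT:1094-2675 on the plus strand. It stood at 7597, 6415 and 18491 CPM in TGL 0 to 2, at 5542, 5388 and 6780 CPM in TGH 0 to 2, and at 26484, 23309, 11978 and 20030 CPM in NTG 0 to 3. All 3 TGH libraries were below every NTG library, TGL 2 stood among the NTG libraries, and NTG 2 was the lowest of its group. In TGH against NTG mt-Rnr2 fell by 1.79 ± 0.36 (SE, adjusted p = 0.00276), and it was called lower with each library left out in turn. In TGL against NTG its change was -0.92 ± 0.34 (adjusted p = 0.142). Without TGL 2 it was -1.55 (adjusted p = 0.00445), and without NTG 2 and TGL 2 together, an alternative chosen after seeing the data, it was -1.73 (adjusted p = 4.34e-05). In TGH against TGL the change was -0.88 ± 0.36 (adjusted p = 0.161), and it was -0.25 without TGL 2.

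mt-Rnr1, the RNA of the small ribosomal subunit, lies upstream at MT:70-1024 on the same strand. It stood at 3576, 3097 and 6036 CPM in TGL, 2388, 2420 and 2936 CPM in TGH, and 8448, 7979, 5008 and 6724 CPM in NTG. As for mt-Rnr2, TGH and NTG did not overlap, TGL 2 reached above NTG 2, and TGL 0 and 1 lay between the groups. mt-Rnr1 fell by 1.45 ± 0.23 in TGH against NTG (SE, adjusted p = 0.000658). In TGL against NTG it was at -0.73 ± 0.23 (adjusted p = 0.0802), and this became a call without TGL 2 (-1.08, adjusted p = 0.00557) or without NTG 2 (-0.87, adjusted p = 0.0303). In TGH against TGL it was at -0.71 ± 0.24 (adjusted p = 0.0847), though every TGH library was below every TGL library.

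**Figure D1:**
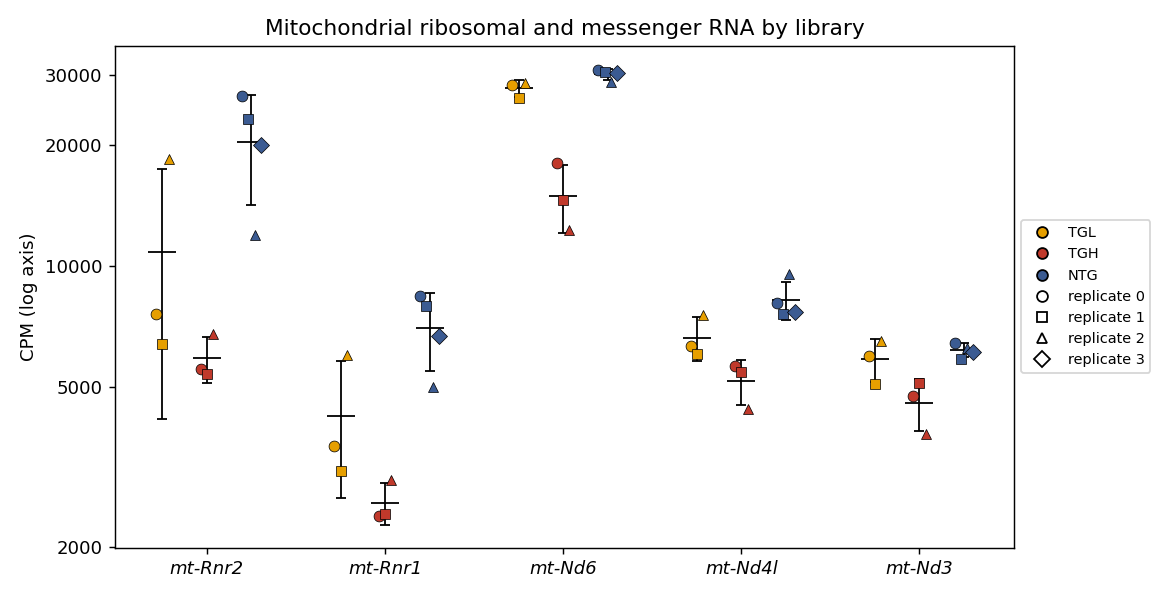
CPM on a log axis of the 2 ribosomal and 3 messenger RNAs in each library (points, shaped by replicate number) with group means and SD (bars), for TGL, TGH and NTG from left to right. The TGH libraries of mt-Nd6 sit between 12289 and 18056 CPM, below all others, while TGL 2 sits among the NTG libraries for mt-Rnr2.

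The ribosomal RNAs together took 1.5% ± 0.77 of all counts in TGL, 0.90% ± 0.12 in TGH and 2.62% ± 0.75 in NTG (SD, n = 3, 3 and 4). The 3 messenger RNAs took 4.03% ± 0.20 in TGL, 2.62% ± 0.39 in TGH and 4.24% ± 0.05 in NTG. The 22 transfer RNA rows took 0.93% ± 0.09 in TGL, 0.70% ± 0.09 in TGH and 1.15% ± 0.06 in NTG. All 27 rows held 5.63 to 7.55% of a library in TGL, 3.90 to 4.46% in TGH and 6.86 to 8.84% in NTG, so the TGH range was below both others and the TGL and NTG ranges overlapped.

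All 3 messenger RNAs encode membrane subunits of complex I, the entry point of electrons from NADH. mt-Nd6 (MT:13552-14070, minus strand) had the highest counts of all 27 rows. It stood at 28331, 26220 and 28662 CPM in TGL, at 18056, 14661 and 12289 CPM in TGH, and at 30822, 30537, 28741 and 30351 CPM in NTG. The TGH libraries were far below the rest, and the TGL libraries lay just under the lowest NTG library. mt-Nd6 fell by 1.01 ± 0.11 in TGH against NTG (SE, adjusted p = 5.19e-05) and by 0.89 ± 0.12 in TGH against TGL (adjusted p = 0.000828). Both calls held with each library left out. In TGL against NTG it was at -0.12 ± 0.11 (adjusted p = 0.57).

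mt-Nd4l and mt-Nd3 lie on the plus strand at MT:9877-10173 and MT:9459-9806. mt-Nd4l stood at 6324, 6040 and 7585 CPM in TGL, 5660, 5450 and 4414 CPM in TGH, and 8095, 7607, 9554 and 7701 CPM in NTG. The 3 groups did not overlap, with TGH lowest and NTG highest. It fell by 0.67 ± 0.12 in TGH against NTG (SE, adjusted p = 0.0013), and was at -0.31 ± 0.12 in TGL against NTG (adjusted p = 0.147). mt-Nd3 stood at 5977, 5102 and 6532 CPM in TGL, 4746, 5126 and 3830 CPM in TGH, and 6465, 5875, 6282 and 6128 CPM in NTG. Only TGH was apart from NTG for mt-Nd3, since TGL spanned the NTG range and TGL 1 lay below TGH 1. mt-Nd3 fell by 0.44 ± 0.11 in TGH against NTG (adjusted p = 0.00989) and was at -0.08 ± 0.11 in TGL against NTG (adjusted p = 0.726).

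Per length, mt-Nd6 also led the long transcripts, at 53444 ± 2552 CPM per kilobase in TGL, 28906 ± 5585 in TGH and 58021 ± 1801 in NTG (SD, n = 3, 3 and 4). On this scale mt-Nd4l was at 22389 ± 2769 in TGL, 17423 ± 2246 in TGH and 27742 ± 3036 in NTG. mt-Nd3 was at 16869 ± 2072 in TGL, 13125 ± 1914 in TGH and 17780 ± 718 in NTG. These are the messenger RNAs, and the ribosomal RNAs had lower CPM per length. mt-Rnr2 was at 6849 ± 4208 CPM per kilobase in TGL, 3732 ± 482 in TGH and 12927 ± 3940 in NTG, and mt-Rnr1 at 4436 ± 1651 in TGL, 2703 ± 322 in TGH and 7371 ± 1610 in NTG. In each group the order of the means was thus mt-Nd6, mt-Nd4l, mt-Nd3, mt-Rnr2, mt-Rnr1, with the last 2 within their SD of each other in TGL. It is an order of counts in these libraries. The nuclear row Gm10222, which shares sequence with mt-Nd4l, held 591530 counts over all libraries, beside 575523 for mt-Nd4l. Whether reads of mt-Nd4l were split between these 2 rows, which could change its place in the order, was not tested. Whether the RNAs stood in that order in the tissue was not tested.

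Where the reads of some rows came from cannot be settled. The sources used here name neither the read counter nor its strand setting, so reads of a gene and of its antisense partner cannot be told apart, and mt-Nd6 and mt-Te lie opposite the RNA that carries mt-Nd5 and mt-Cytb. On opposite strands, mt-Nd6 overlaps mt-Nd5 by 14 bases, mt-Ts1 overlaps mt-Co1 by 3 bases and mt-Tq overlaps mt-Ti by 3 bases. Of all 50-base words of a gene, 98.0% of those of mt-Nd3 and 98.8% of those of mt-Nd4l also occur in an annotated nuclear gene, so the authors' counting could split their reads between copies. The share was 1.04% for mt-Rnr2 and 0 for mt-Rnr1, mt-Nd6 and all transfer RNAs.

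The transfer RNAs carry amino acids to the mitochondrial ribosome, and their rows did not move as 1 block. Their total counts ran from 24 for mt-Tf to 424678 for mt-Ts1. The kit used selects RNA by its poly(A) tail when used as supplied, and mature transfer RNAs lack such a tail, so a row may also count longer RNAs that span the gene. Mature and longer RNAs cannot be told apart in these counts. How much of each ribosomal or messenger RNA such a selection keeps was not tested either. The CPM of those rows, mt-Rnr2, mt-Rnr1 and mt-Nd6 among them, thus need not follow their amounts in the tissue.

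Transfer RNAs before mt-Co1 on the map, from mt-Tf to mt-Ty, were called lower in TGH against NTG in 9 of the 10 tested. The log2 change was below 0 in all 10, with a median of -1.69. Among the 11 from mt-Ts1 on, 3 were called lower (mt-Ts1, mt-Tg and mt-Te), 1 higher (mt-Ts2), and the median was -0.24. The map was split at mt-Co1 after the values were seen, so the split is a description. By strand, 7 of 8 tested on the minus strand and 5 of 13 on the plus strand were called lower. Of all genes tested 16.4% were called lower and 16% higher. Strand, place on the map and level of counts overlap among these rows, so they cannot be told apart. mt-Tq had the largest fall of all 26 genes in TGH. It stood at 207, 163 and 382 CPM in TGL, 92.4, 129 and 108 CPM in TGH, and 581, 504, 411 and 428 CPM in NTG, so the groups did not overlap. It fell by 2.13 ± 0.26 in TGH against NTG (SE, adjusted p = 8.56e-05).

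mt-Te, next to mt-Nd6 on the same strand, had the smallest adjusted p of the 26. It stood at 2166, 1932 and 2078 CPM in TGL, 1235, 1239 and 1001 CPM in TGH, and 2860, 2601, 2550 and 2617 CPM in NTG. The groups were apart, in the order TGH, TGL, NTG from low to high. mt-Te fell by 1.20 ± 0.09 in TGH against NTG (SE, adjusted p = 2.02e-06) and by 0.83 ± 0.09 in TGH against TGL (adjusted p = 0.000264). The ratio of mt-Te to mt-Nd6 was 0.0742 ± 0.0021 in TGL, 0.0781 ± 0.0086 in TGH and 0.0882 ± 0.0034 in NTG (SD).

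The changes of the leucine pair in TGH against NTG had opposite signs, that of mt-Tl2 uncalled. mt-Tl1, directly after mt-Rnr2, was at 345, 298 and 580 CPM in TGL, 272, 204 and 152 CPM in TGH, and 795, 735, 699 and 624 CPM in NTG. All TGH libraries lay under all TGL libraries, and these under all NTG libraries. It fell by 1.77 ± 0.24 in TGH against NTG (SE, adjusted p = 0.000177). mt-Tl2 was at 14.1, 10.2 and 10.2 CPM in TGL, 13.0, 44.6 and 32.9 CPM in TGH, and 18.5, 23.7, 23.7 and 22.9 CPM in NTG. Here TGH 1 and 2 were the highest libraries and TGH 0 was among the TGL values. Its change in TGH against NTG was 0.45 ± 0.30 (adjusted p = 0.267), and without TGH 0 it was 0.80 (adjusted p = 0.00508). The ratio of mt-Tl1 to mt-Tl2 was 24.4 to 57.0 in TGL, 4.57 to 20.9 in TGH and 27.3 to 43.1 in NTG, with TGH below both others in every library.

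The serine pair differed likewise in direction. mt-Ts1 was at 4531, 4752 and 5468 CPM in TGL, 3731, 4923 and 3842 CPM in TGH, and 5888, 5421, 5697 and 5850 CPM in NTG, with TGH under NTG in every library and TGL 2 among the NTG values. It fell by 0.46 ± 0.10 in TGH against NTG (SE, adjusted p = 0.00626). mt-Ts2 was the only row called higher in TGH, by 0.47 ± 0.16 (adjusted p = 0.0391), at 34.4, 29.0 and 29.5 CPM in TGL, 33.5, 54.8 and 47.0 CPM in TGH, and 26.0, 36.0, 34.1 and 34.2 CPM in NTG. TGH 1 and 2 were above all other libraries and TGH 0 was among the NTG values. That call ended without TGH 1 (adjusted p = 0.203), TGH 2 (0.0926), NTG 0 (0.098), NTG 2 (0.0501) or NTG 3 (0.0579). The serine ratio, mt-Ts1 over mt-Ts2, was 160 ± 26.7 in TGL, 94.2 ± 15.1 in TGH and 179 ± 33.1 in NTG (SD), with every TGH library below the others.

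**Figure D2:**
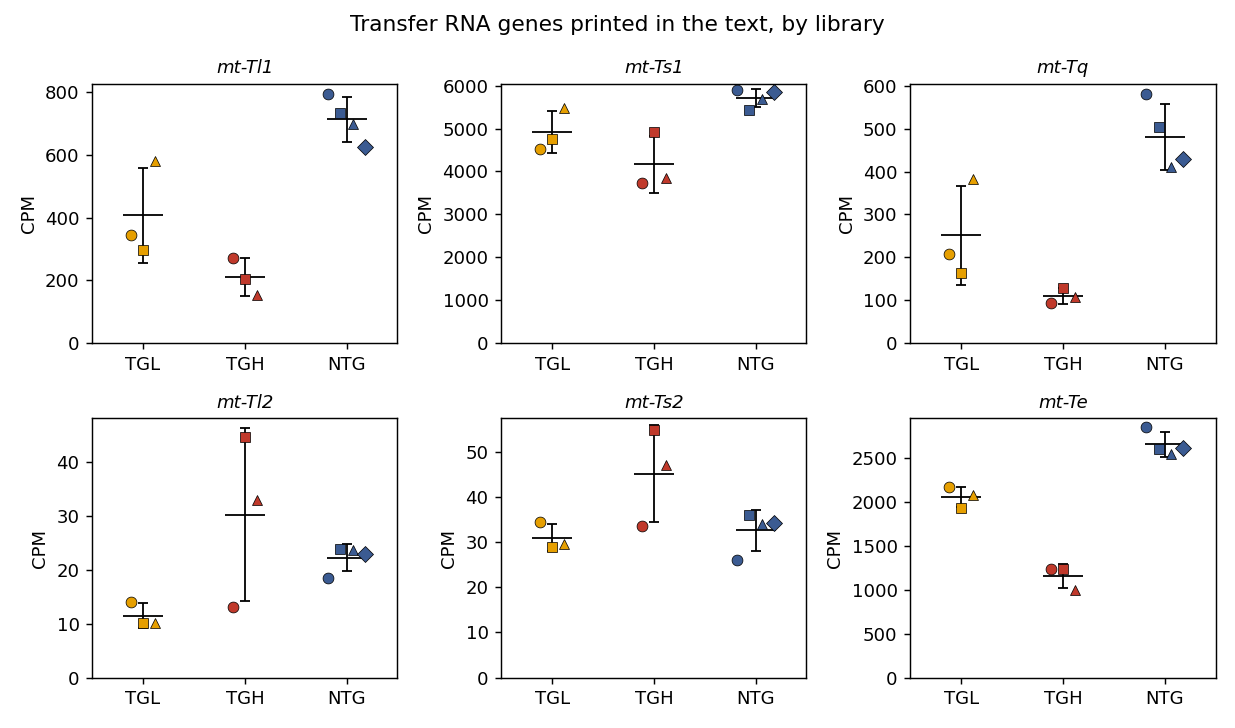
CPM of the 6 transfer RNA genes printed above in each library (points, shaped by replicate number) with group means and SD, for TGL, TGH and NTG from left to right, on axes that start at 0. mt-Tq, mt-Tl1 and mt-Te are lowest in every TGH library, while mt-Tl2 and mt-Ts2 are highest in TGH 1 and TGH 2.

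The other transfer RNAs before mt-Co1 were called lower in TGH against NTG as well, except mt-Tv. The log2 change was -1.8 for mt-Ta (alanine), -1.78 for mt-Tn (asparagine), -1.75 for mt-Tw (tryptophan), -1.64 for mt-Tc (cysteine) and -1.60 for mt-Ty (tyrosine), with adjusted p from 9.6e-05 to 0.0005. mt-Tm, which carries methionine and starts translation, fell by 1.55 (adjusted p = 0.000272), and mt-Ti (isoleucine) by 1.26 (adjusted p = 0.00397). In these 7 genes every TGH library was below every NTG library. mt-Tv, the valine transfer RNA between the ribosomal RNAs, had 0.817 to 2.35 CPM in TGL, 1.29 to 3.63 in TGH and 3.21 to 4.35 in NTG. Its change in TGH against NTG was -0.71 ± 0.35 (adjusted p = 0.144), and without TGH 1 it was -1.30 (adjusted p = 0.0256).

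After mt-Co1, mt-Tg (glycine) stood at 40.9, 41.1 and 54.4 CPM in TGL, 37.4, 37.5 and 28.7 CPM in TGH, and 43.5, 52.9, 49.4 and 40.4 CPM in NTG. TGH was under NTG in every library, by a margin smaller than the spread of NTG. It fell by 0.43 ± 0.14 in TGH against NTG (SE, adjusted p = 0.0339), a call that ended without TGH 1 (adjusted p = 0.0541), TGH 2 (0.124), NTG 1 (0.0921) or NTG 2 (0.0621). The other 6 rows after mt-Co1 not yet described were not called in TGH against NTG. mt-Th (histidine) was at 0.21 and mt-Tt (threonine) at 0.05, while mt-Td (aspartate) was at -0.05, mt-Tr (arginine) at -0.24, and mt-Tk (lysine) and mt-Tp (proline) were each at -0.33, with SE of 0.11 to 0.29. Apart from mt-Th at 42.3 to 52.5 CPM and mt-Td at 15.9 to 30.5 CPM in transgenic libraries, these rows held under 20 CPM in all libraries, so their precision was lower.

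**Figure D3:**
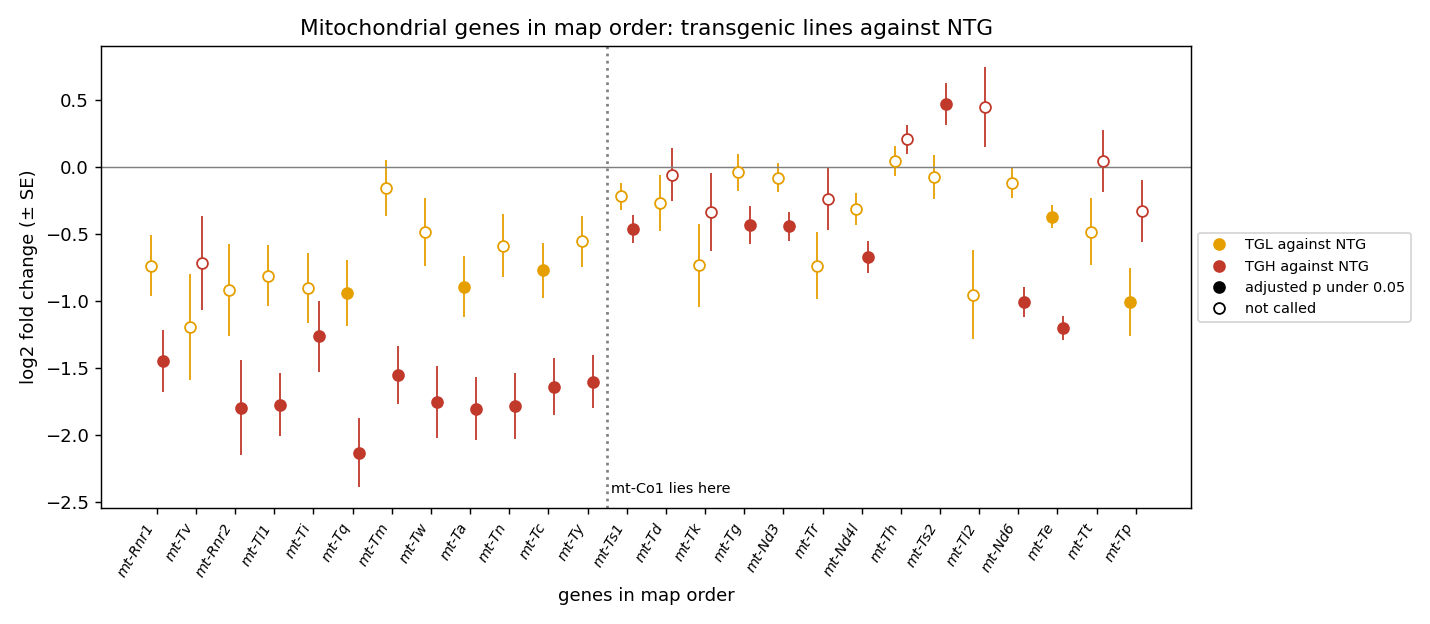
Log2 fold change with SE of the 26 tested mitochondrial genes against NTG, in map order, for TGL and TGH (filled points have adjusted p under 0.05). TGH points lie between -2.13 and -1.26 for the called transfer RNAs before mt-Co1 and between -1.20 and 0.47 for the transfer RNAs after it.

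In TGL against NTG 5 of the 26 were called lower, where the background was 2.14%, and 0 were called higher, where it was 4.15% (6.29% in either direction). These were mt-Te (-0.37 ± 0.09, adjusted p = 0.029), mt-Tp (-1.0 ± 0.26, adjusted p = 0.0397), mt-Ta (-0.89 ± 0.23, adjusted p = 0.041), mt-Tq (-0.94 ± 0.25, adjusted p = 0.0438) and mt-Tc (-0.77 ± 0.21, adjusted p = 0.0484). All are transfer RNAs of the minus strand. The log2 change was below 0 in 25 of the 26, with a median of -0.57, and the groups did not overlap in 12 of the 27 rows, all lower in TGL, where 9.44% of tested genes were so placed. No member was called higher by edgeR or by DESeq2, and no call held with each library left out in turn. The count of called members was 1 without TGL 0, 0 without TGL 1, 10 without TGL 2, 1 without NTG 0, 0 without NTG 1, 6 without NTG 2 and 1 without NTG 3. Without NTG 2 and TGL 2 together it was 11, and then mt-Rnr2, mt-Rnr1, mt-Ti, mt-Tl1, mt-Tn, mt-Ty and mt-Tw joined while mt-Tp dropped out.

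In TGH against TGL 10 of the 26 were called lower, where the background was 4.11%, and 1 was called higher, where it was 5.53% (9.64% in either direction). mt-Tm fell by 1.39 ± 0.23 (SE, adjusted p = 0.00285), mt-Ty by 1.05 ± 0.20 (adjusted p = 0.00807) and mt-Tn by 1.20 ± 0.25 (adjusted p = 0.0121), and with mt-Nd6 and mt-Te these 3 were called with each library left out. mt-Tm stood at 146, 112 and 78.3 CPM in TGH and at 343, 212 and 327 CPM in TGL, beside 355, 288, 384 and 283 CPM in NTG, so TGL 0 and 2 lay among NTG, TGL 1 lay below NTG, and every TGH library was below all others. mt-Tl2 was higher by 1.40 ± 0.34 (adjusted p = 0.0247), and this call ended without TGL 1 (adjusted p = 0.0946), TGL 2 (0.0756), TGH 1 (0.108) or TGH 2 (0.0651). The fall of mt-Tq (1.19, adjusted p = 0.0148) ended as a call without TGH 0 (adjusted p = 0.051). mt-Tw (adjusted p = 0.0147) and mt-Tl1 (0.0277) ended without TGL 2, TGH 1 or TGH 2, at adjusted p of 0.0503 to 0.0996. mt-Tc (0.0277) and mt-Ta (0.0393) held only without TGL 1, and without any of the other 5 libraries their adjusted p were 0.0533 to 0.122. Every TGH library was below every TGL library in 13 of the 27 rows, where 13.9% of tested genes were so placed, and above in 1 (mt-Tp), where the background was 14.5%.

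Ratios between mitochondrial RNAs do not depend on the library size. Ribosomal over messenger RNA, as summed CPM, was 0.368 ± 0.178 in TGL, 0.354 ± 0.104 in TGH and 0.617 ± 0.171 in NTG (SD, n = 3, 3 and 4). mt-Rnr2 over mt-Rnr1 was 2.42 ± 0.558 in TGL, 2.29 ± 0.0493 in TGH and 2.85 ± 0.322 in NTG. mt-Nd6 over the sum of mt-Nd3 and mt-Nd4l was 2.03 to 2.35 in TGL, 1.39 to 1.74 in TGH and 1.81 to 2.27 in NTG. Only the last of these ratios put every TGH library outside both other groups, and it compares genes of opposite strands.

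**Figure D4:**
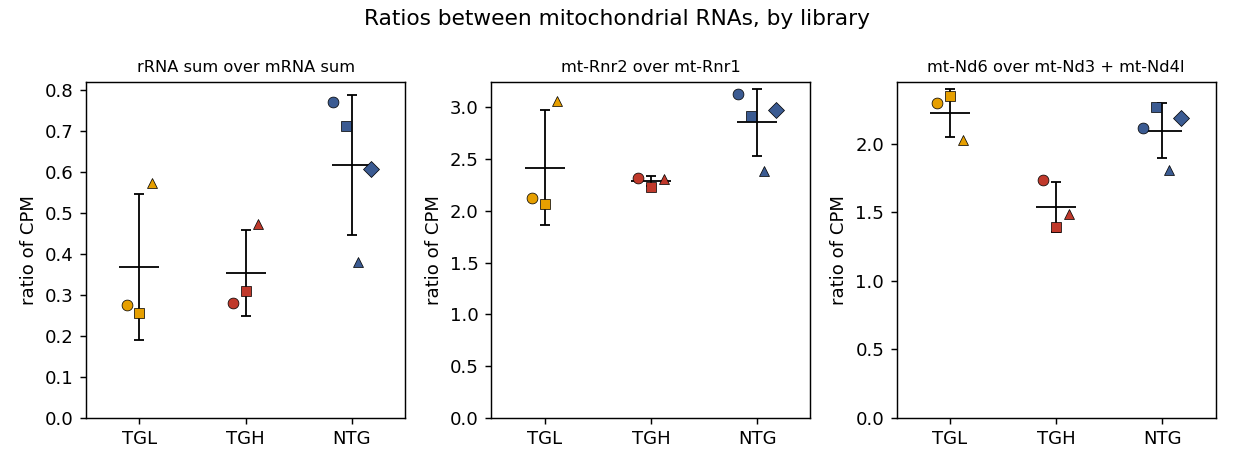
Ratios of CPM within each library (points, shaped by replicate number) with group means and SD, for TGL, TGH and NTG from left to right, on axes that start at 0. mt-Nd6 over mt-Nd3 plus mt-Nd4l is 1.39 to 1.74 in TGH, below the 1.81 to 2.35 seen in the other libraries.

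Nuclear rows that share sequence with mitochondrial genes moved in the same direction in TGH. Gm10222 on chromosome 1 (GRCm38, chr1:24612407-24612700) had all of its 50-base words (100%) in mt-Nd4l. It stood at 6557, 6202 and 7843 CPM in TGL, 5842, 5583 and 4557 CPM in TGH, and 8340, 7805, 9767 and 7862 CPM in NTG, in each library close to the level of mt-Nd4l. It fell by 0.67 ± 0.12 in TGH against NTG (SE, adjusted p = 0.00138). A further 4 rows were chosen after their values were seen. Gm13341 shares 36.0% of its words with mt-Co2 and fell by 0.42 (adjusted p = 0.0105), Gm13339 shares 17.6% with mt-Nd2 and fell by 1.01 (adjusted p = 0.00019), and Gm11407 shares 6.34% with mt-Nd5 and fell by 0.52 (adjusted p = 0.000186). Gm11512, which shares 0.814% with mt-Co1, was at -0.22 (adjusted p = 0.0912). None of the 5 was called in TGL against NTG, where 6.29% of all genes tested were called. Whether their reads came from the nuclear copy or from mitochondrial RNA cannot be told apart.

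**Figure D5:**
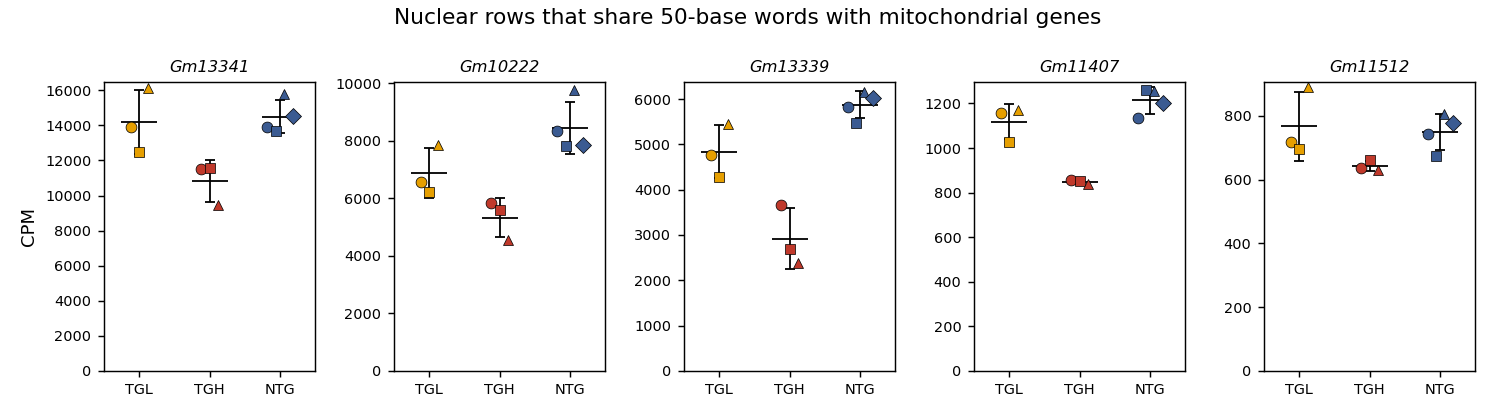
CPM of the 5 nuclear rows that share 50-base words with mitochondrial genes in each library (points, shaped by replicate number) with group means and SD, for TGL, TGH and NTG from left to right, on axes that start at 0. Gm13339 is at 2388 to 3672 CPM in TGH and at 4290 to 6162 CPM in the other libraries.

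Markers of several cell types also differed between TGH and NTG, some lower and some higher. In bulk tissue fewer cells of a type and less RNA per cell cannot be told apart. The summed CPM of the 10 cardiomyocyte markers was 90541 to 91865 in TGL, 74702 to 79691 in TGH and 93854 to 97165 in NTG, and 9 of the 10 were called lower in TGH and 1 (Actc1) higher. Of all genes tested 16.4% were called lower and 16% higher in TGH against NTG. The sum of 5 atrial markers was 310 to 943 CPM in TGL, 360 to 430 in TGH and 42.2 to 87.1 in NTG, so both lines were above every NTG library. All 3 atrial markers tested (Nppa, Myl4 and Dkk3) were called higher in TGH, and Nppa and Myl4 also in TGL. Sln and Myl7, also on the atrial list, did not pass the low-count filter. Of 8 fibroblast markers 7 were called higher in TGH, with sums of 1355 to 1762 CPM in TGL, 1712 to 1802 in TGH and 1034 to 1356 in NTG. Of 7 macrophage markers 4 were called higher in TGH, with sums of 290 to 363 CPM in TGL, 463 to 513 in TGH and 302 to 389 in NTG. Of 7 endothelial markers 4 were called lower in TGH, with sums of 1229 to 1454 CPM in TGL, 959 to 1320 in TGH and 1304 to 1585 in NTG. Of 6 smooth muscle and pericyte markers 2 were called lower in TGH, with sums of 1386 to 1762 CPM in TGL, 1432 to 1895 in TGH and 1233 to 2099 in NTG. Of 6 skeletal muscle markers 2 were tested, Myh4 and Ckm, and both were called lower in TGH. Ckm is also among the 10 cardiomyocyte markers, and Mylpf, Tnnt3, Pvalb and Actn3 did not pass the low-count filter. The skeletal muscle sums, Ckm included, were 1660 to 1947 CPM in TGL, 1161 to 1373 in TGH and 1747 to 2313 in NTG. They do not stand for skeletal muscle alone. The 5 erythroid markers in the table had sums of 722 to 1017 CPM in TGL, 719 to 804 in TGH and 737 to 1135 in NTG, and their adjusted p in TGH against NTG were 0.0656 to 0.931. Lymphocyte and adipocyte markers were too low to test, with sums of at most 2.9 CPM in any library. Mitochondrial messenger RNA over the cardiomyocyte sum was 0.441 ± 0.032 in TGL, 0.322 ± 0.0457 in TGH and 0.468 ± 0.0117 in NTG (SD, n = 3, 3 and 4). Ribosomal RNA over that sum was 0.166 ± 0.0917 in TGL, 0.111 ± 0.0151 in TGH and 0.289 ± 0.0848 in NTG. Both ratios were lower in every TGH library than in every NTG library. The part that cell makeup had in these results was not tested.

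Of the nuclear genes that serve the mitochondrial genome, 8 lists were looked at, and 15.8 to 57.1% of a list was called in TGH against NTG, where the background was 32.4%. In TGL against NTG 0 to 1 gene of a list was called (0 to 5.88%), where the background was 6.29%. Of 17 genes for its transcription and control, 2 were called higher and 3 lower in TGH against NTG. Ppargc1a, the coactivator that drives mitochondrial biogenesis, fell by 1.91 ± 0.42 (SE, adjusted p = 0.00515), its relative Pprc1 fell by 0.58 (adjusted p = 0.00225) and Mterf3, a repressor of mitochondrial transcription, by 0.33 (adjusted p = 0.0281). Tefm, the elongation factor, rose by 0.34 (adjusted p = 0.0219). Tfam, which packs the genome and starts its transcription, was at 0.14 ± 0.10 (adjusted p = 0.271), and Polrmt, the RNA polymerase itself, at -0.16 ± 0.12 (adjusted p = 0.328). In TGL against NTG Ppargc1b was the only one of the 17 called, higher by 0.63 (adjusted p = 0.031), and Ppargc1a was at -1.43 ± 0.42 (adjusted p = 0.0656). Of 18 genes for copying and upkeep of the genome, 3 were called lower and 1 higher in TGH. Top1mt, its topoisomerase, fell by 0.96 (adjusted p = 0.00354), Mfn1, a fusion protein, by 0.62 (adjusted p = 3.82e-05) and Slc25a4, the ATP and ADP carrier, by 0.33 (adjusted p = 0.00387). Primpol, the primase and polymerase, rose by 0.99 (adjusted p = 0.0132).

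Of 24 genes for processing, tailing and decay of mitochondrial RNA, 8 were called lower and 2 higher in TGH against NTG. That was 41.7% of the list, where 32.4% of all genes tested were called (16.4% lower and 16% higher). Lrpprc, which keeps mitochondrial messenger RNAs stable, fell by 0.69 ± 0.08 (SE, adjusted p = 7.51e-05). Hsd17b10, a subunit of the enzyme that cuts transfer RNAs at their 5′ end, fell by 0.64 (adjusted p = 5.85e-05), and Mtpap, the mitochondrial poly(A) polymerase, fell by 0.38 (adjusted p = 0.00865). Fastk, which in mouse cells is needed for the mt-Nd6 messenger RNA, fell by 0.39 (adjusted p = 0.00171). Rexo2, which degrades short RNAs, rose by 0.86 ± 0.09 (adjusted p = 1.74e-05). It was the only gene of this list called in TGL against NTG, where it rose by 0.49 (adjusted p = 0.00574). In TGL 6.29% of all genes tested were called. Of 19 genes for modification and assembly of the ribosomal RNAs, 2 were called higher and 1 lower in TGH, 15.8% of the list. Trub2 rose by 0.47 (adjusted p = 0.00333) and C1qbp by 0.19 (adjusted p = 0.0415), Mrm3, a methyltransferase of the large ribosomal RNA, fell by 0.35 (adjusted p = 0.0394), and Mrm1 was at 0.52 (adjusted p = 0.0663).

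Of 31 genes that charge or mature mitochondrial transfer RNAs, 8 were called higher and 4 lower in TGH against NTG. That was 38.7% of the list, where the background was 32.4%. In TGL against NTG 0 were called, where the background was 6.29%. Trit1, which modifies a base beside the anticodon, rose by 0.94 ± 0.15 (SE, adjusted p = 0.000546). Lars2, which charges both leucine transfer RNAs, rose by 0.93 (adjusted p = 0.00212) and Tars2, which charges that of threonine, by 0.47 (adjusted p = 0.000998). Trmt5, a methyltransferase, fell by 0.70 (adjusted p = 0.00807). Of 77 mitochondrial ribosomal protein genes, 21 were called lower and 3 higher in TGH. Of all genes tested 16.4% were called lower and 16% higher. The median over the list was -0.12. Mrps35 was at -0.63, Mrpl42 at -0.58, Mrps21 at -0.55 and Mrpl39 at -0.49, with adjusted p of 0.00023 to 0.00064. Of 7 nuclear core subunits of complex I, the partners of mt-Nd3, mt-Nd4l and mt-Nd6, 4 were called lower in TGH. They were Ndufv2 at -0.41, Ndufs7 at -0.40, Ndufs3 at -0.22 and Ndufs8 at -0.21. These values lie closer to 0 than those of mt-Nd6 and mt-Nd4l, while mt-Nd3, at -0.44, was near Ndufv2 and Ndufs7. Differences between these genes were not tested.

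Of 97 nuclear RNAs in the table that mostly lack a poly(A) tail, 23 passed the low-count filter. Of these, 4 were called higher and 4 lower in TGH against NTG, with a median of 0.27. That was 34.8% of those tested, close to the 32.4% called over all genes tested. Hist3h2a fell by 1.42 (adjusted p = 7.2e-05) and Hist2h2be by 1.43 (adjusted p = 8.7e-05), while Hist1h1d rose by 1.70 (adjusted p = 0.00279) and Hist1h1c by 0.67 (adjusted p = 0.00175). These 4 encode histones, and the list as a whole had no single direction.

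Some nuclear genes ran closely along with the ribosomal RNAs and mt-Nd6 over the 10 libraries, by Pearson's r of log2 CPM plus 0.5, which the group differences and the shared libraries enter. Coq10b binds coenzyme Q, Zmpste24 is a protease that matures lamin A, Creb1 is a transcription factor, and Tnni3 is the heart's troponin I. The 5 most like mt-Rnr2 were Coq10b (r = 0.984), Ubqln1 (0.979), Zmpste24 (0.978), Slfn5 (0.972) and Creb1 (0.972). For mt-Rnr1 they were Zmpste24 (0.989), Coq10b (0.985), Zbed3 (0.979), Ccbe1 (0.975) and Zc3h18 (0.972). mt-Nd6 had another set, Kcnj5 (0.985), Tnni3 (0.985), Mrpl42 (0.981), Ndufb10 (0.981) and Magix (0.98). mt-Rnr2 and mt-Rnr1 had r = 0.992 with each other, and mt-Rnr2 and mt-Nd6 had 0.726.

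With both lines joined, as the authors compared them, 11 of the 26 were called lower in TG against NTG, where the background was 8.03%, and 0 higher, where it was 9.34% (17.4% in either direction). Every TG library was below every NTG library in 7 of the 27 rows, where 6.38% of tested genes were so placed, and above in 0, where it was 7.68%. The authors' deposited table, from DESeq2, has 12 members with an adjusted p under 0.05, all lower, and 11 of them are the same genes. mt-Rnr2 fell by 1.29 ± 0.34 (SE, adjusted p = 0.0253) and mt-Rnr1 by 1.05 ± 0.25 (adjusted p = 0.0154). The mt-Rnr2 call ended without TGH 0, 1 or 2 or NTG 0 or 1 (adjusted p = 0.0511 to 0.0807), and that of mt-Rnr1 without NTG 0 (0.0555) or NTG 1 (0.0535). mt-Nd4l fell by 0.48 (adjusted p = 0.0291), a call that ended without TGH 0, TGH 1, NTG 0, NTG 1 or NTG 2, at adjusted p of 0.0568 to 0.078. The other calls were 8 transfer RNAs, mt-Tq, mt-Ti, mt-Tl1, mt-Ta, mt-Tc, mt-Tn, mt-Ty and mt-Te. Of these, mt-Ti, mt-Tl1, mt-Ta and mt-Tc were called with each library left out. mt-Tq was not called without NTG 0 (adjusted p = 0.0517). mt-Te was not called without TGH 0, TGH 1 or any 1 of the NTG libraries (adjusted p = 0.0542 to 0.0848). mt-Ty was not called without TGL 1, TGH 0, TGH 1, TGH 2, NTG 0, NTG 1 or NTG 3 (adjusted p = 0.0511 to 0.0923), and mt-Tn was not called without any 1 of the 9 libraries other than TGL 2 (adjusted p = 0.055 to 0.117). mt-Nd6 was uncalled in this fit of 2 groups, at -0.49 ± 0.22 (adjusted p = 0.14). In the fit in which TGL and TGH keep their own means, the average of both lines against NTG was called for mt-Nd6, at -0.56 (adjusted p = 0.00118). Comparisons with NTG share the NTG libraries, so the calls in TGL, TGH and TG are not independent of each other.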

How the data were processed

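Left ventricle RNA of 10 mice was extracted with Trizol and made into libraries with the Illumina TruSeq RNA Sample Prep Kit, per the labels' protocols. Per the submitters' processing notes, the tools were bcl2fastq 1.8.4, Trim Galore 0.4.0, Novoalign, SAMtools and DESeq2 1.18.1, with mm10 (GRCm38). No source used here names the counter, its annotation or its strand. The authors' deposited table holds a count per gene and library and, by its header, the authors' signal (baseMean), log2 fold change, score (stat) and p-value for TG against NTG. Of its rows 1324 have no symbol.

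Counts were tested with edgeR 4.0.16 (R 4.3.3, limma 3.58.1): filterByExpr by group, TMM and the quasi-likelihood F test, with Benjamini-Hochberg adjustment over all genes tested. TGL, TGH and NTG were in 1 fit, and TG against NTG was a fit of 2 groups. SE is the log2 change divided by the root of F. The code was tested on simulated data. Titles give groups the same numbers (0 to 3). Deviations from group means of same-numbered libraries correlated at -0.06 to 0.353, not over 0.1 in every pair, so the numbers were not taken as pairs. Alternatives were DESeq2 1.42.0, RLE size factors, other low-count filters, library sizes from nuclear rows, the replicate block, other groups in the fit and leaving out each library. Leaving out NTG 2 and TGL 2 together was added after seeing the data. Shared sequence was measured as 50-base words of GENCODE M21 transcripts found in an annotated gene of another chromosome. Nuclear rows that hold at least 90% of the words of a mitochondrial gene were to be named.

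The members, the gene lists and the map split were chosen with earlier results of these data known. All members, Nfe2l2, Tfam, Polrmt, Ppargc1a, Lrpprc and Mtpap, up to 4 genes per list by smallest adjusted p in TGH against NTG, and the 5 genes most alike in pattern are named. All per-sample columns were used. Sums and ratios over members were given no test.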

Additional observations from a re-analysis of the deposited data

Results flagged for a closer look

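In NTG the CPM of mt-Tl2, a leucine transfer RNA, had 1 library apart from the other 3. NTG 0 stood at 18.46 CPM, with NTG 1, 2 and 3 at 23.74, 23.68 and 22.89 CPM. Of 39 measures checked in NTG this was the only one in which the gap of a library to the nearest other, over the range of the group, was above Dixon's critical value. Chance gives about 1 in 20. TGL and TGH hold 3 libraries each and were not checked in this way. Without NTG 0 the change of mt-Tl2 stayed uncalled in TGH against NTG and in TGL against NTG.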

How the results depend on the processing

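Of 1612 values of single members under alternatives, 1438 kept direction and side of the threshold, 111 lost a call, 45 gained one and 18 changed sign, none of these called. The cause was not tested. With 1 library left out at a time, the 9 members involved ranged as follows: in TGL against NTG mt-Tg from -0.183 to 0.0435, mt-Tm from -0.275 to 0.0328, mt-Nd3 from -0.16 to 0.0156 and mt-Th from -0.0453 to 0.0958, in TGH against NTG mt-Tr from -0.568 to 0.00833, mt-Td from -0.247 to 0.173 and mt-Tt from -0.267 to 0.253, in TGH against TGL mt-Tv from -0.108 to 0.835, and in TG against NTG mt-Tl2 from -0.449 to 0.0714. Without NTG 2 and TGL 2 together mt-Td turned to 0.0449 in TGH against NTG and mt-Tl2 to 0.103 in TG against NTG. Members called in TGL against NTG numbered 5, 9 with DESeq2 and 11 without NTG 2 and TGL 2 together, when genes called numbered 1666 in place of 913. With 3 groups in the fit TG against NTG gave 17 members in place of 11 and 3727 genes in place of 2477. The replicate block took members called to 1 in TGL against NTG, and to 4 members and 1345 genes in TG against NTG, and the numbers are not known to pair mice, since not every library correlated best with its own number. Leaving out 1 library at a time, genes called ranged from 457 to 1399 in TGL against NTG, 3108 to 4552 in TGH against NTG, 730 to 1432 in TGH against TGL and 1182 to 3551 in TG against NTG. Members called ranged from 0 to 10, 16 to 19, 6 to 10 and 4 to 13 in these comparisons. In TGH against NTG 16 of 18 calls held under every library left out, and all 18 under every other alternative run. Rows under 20 CPM, such as mt-Tv and mt-Tp, limit what can be seen there.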
